A study of Rattus norvegicus with 23 samples.

Results

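Fatty acid oxidation, ketone body and peroxisomal genes were followed as a set of 33 genes in the area postrema, a small organ of the rat brainstem whose capillaries let blood-borne signals reach its neurons. Each gene was read by 1 probe set of the Affymetrix Rat Genome 230 2.0 array, the one with the highest mean over all arrays among those that carry its symbol alone. This rule found 32 of the 33 genes, out of 14217 genes with a single symbol. The exception was Acaa1a, a peroxisomal thiolase, whose probe set also carries the symbol of its close relative Acaa1b. Of the 32 genes, 30 had enough signal to be tested, while Ppara (1.4 to 4.3 over the 23 arrays) and Ehhadh (1.4 to 19.8) lay below the filter on low signals in every comparison.

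RNA came from 23 arrays, each a pool of 5 male rats. The spontaneously hypertensive rat (SHR) and the Wistar Kyoto rat (WKY), inbred strains without a stated treatment, had 5 arrays each and were 10 to 13 weeks old. Outbred Sprague Dawley rats of 10 to 12 weeks were untreated controls (4 arrays), were fasted for 48 h (5 arrays, also labelled as food restriction) or were dehydrated for 72 h (4 arrays). What the dehydrated animals ate is not given in the sources used here. Nothing in the labels says how pools were formed beyond the number of animals, so the p-values measure the spread between pools, which may in part be technical.

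Mitochondria burn fatty acids by a cycle of dehydrogenation, hydration, a second dehydrogenation and thiolysis. Carnitine carries long-chain acyl groups into the organelle, electrons leave through the electron transfer flavoprotein, and auxiliary enzymes prepare the double bonds of unsaturated fatty acids. In brain these enzymes are found chiefly in astrocytes, ketone bodies made by the liver can feed neurons and glia, and peroxisomes shorten very long chains. Many of the genes are textbook targets of the lipid-activated receptor PPAR-alpha.

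Signals are linear, unitless and scaled to a common trimmed mean of 100 per array, and array medians ran from 39.81 to 44.48. Differences are on the scale log2(signal + 16), so folds understate the ratio at dim probe sets, and a change passes when the adjusted p of the limma test is below 0.05. Known marker genes of the organ were read as a check of the labelled tissue. The calcitonin receptor Calcr ranged from 95.6 to 166 over the 23 arrays, the calcium-sensing receptor Casr from 162.1 to 299.8 and the noradrenaline-making enzyme Dbh from 183.4 to 372.8. Of the markers of adjacent tissue, the choroid plexus transthyretin gene Ttr ran from 44.2 to 189.1 in the SHR and WKY arrays and from 152.1 to 7953.2 in the Sprague Dawley arrays. Fewer cells of a type and less RNA per cell cannot be told apart in such pools.

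Between the strains, 6 of the 30 tested genes were higher in SHR than in WKY and none was lower. They were the peroxisomal membrane protein Pxmp4 (3.28-fold), the lipoprotein lipase inhibitor Angptl4 (1.72-fold), the acyl-CoA thioesterase Acot1 (1.55-fold), the dienoyl-CoA isomerase Ech1 (1.22-fold), the enoyl-CoA isomerase Eci1 (1.23-fold) and the long-chain dehydrogenase Acadl (1.17-fold). That is 20% of the genes tested, where 5.06% of all 18625 probe sets passed, 2.17% higher and 2.88% lower. The set was chosen with earlier results of these data known. This share and the shares of the set given below therefore describe it and are no test of it. The median difference of the 30 genes was 0.09 (log2), beside 0.005 over all probe sets, and 10 of the 30 were negative (48.3% of all probe sets). Carnitine shuttle, electron transfer and ketone body genes had none that passed.

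**Figure D1:**
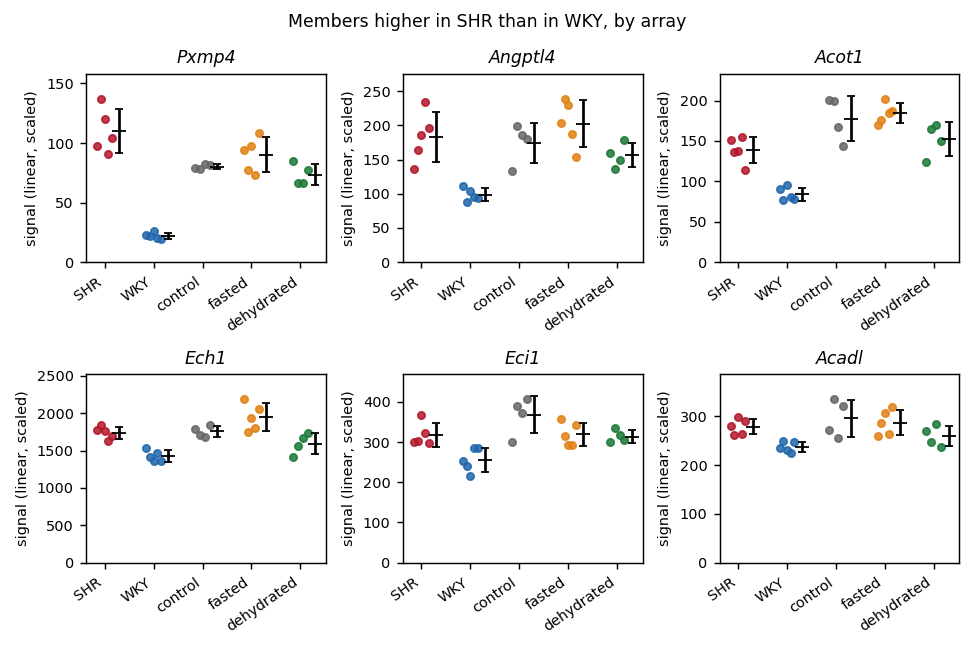
Signal of the 6 genes that passed between the strains, on linear axes from 0, in the 5 groups. Points are arrays and bars are the mean ± SD. All 5 WKY arrays of Pxmp4 lie at 19.7 to 26.2, below every other array, and the same separation of WKY from the other 18 arrays holds for Angptl4, Acot1 and Eci1.

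Among the peroxisomal genes, Pxmp4 differed most. Its signal was 97.9, 137.3, 120.5, 91.0 and 103.8 in the SHR arrays and 22.8, 21.7, 26.2, 20.3 and 19.7 in the WKY arrays. The lowest SHR array was thus more than 3 times the highest WKY array. Pxmp4 was dim in WKY, so its place among the tested genes, and among those that passed, rests largely on the SHR arrays. The difference was 1.72 (log2, SE 0.105, adjusted p = 7.92e-09), or 1.01 with a pseudocount of 64. A second probe set of Pxmp4, below the filter, gave 39.6 to 75.2 in SHR and 4.3 to 17.8 in WKY, again without overlap. In Sprague Dawley rats the first probe set ran from 66.1 to 108.4, which covers part of the SHR range and none of the WKY range. Catalase, the peroxide-degrading enzyme Cat, had 460.8 ± 23.8 in SHR and 426.9 ± 49.5 in WKY, and Pex11a, which promotes peroxisome division, had 124.9 ± 14.1 and 114.1 ± 10.8 (SD, n = 5), and neither passed.

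The upstream sequences of Pxmp4, of the thioesterase genes Acot1 and Acot2 and of Angptl4 are shown because these hold the largest strain differences and, in Acot2, a close relative without a call. They are the 250 bases before the annotated start in RefSeq's GRCr8 assembly, 5′ to 3′ on the strand of the gene. They come from the reference strain and not from SHR or WKY. Capitals mark 4 motifs on either strand, which may overlap. The CCAAT box was searched by the 5 letters of its name, the GC box as GGGCGG, the TATA box as TATAAA and a half-site of nuclear receptors as AGGTCA.
Pxmp4, chr3:163570830-163571079, minus strand: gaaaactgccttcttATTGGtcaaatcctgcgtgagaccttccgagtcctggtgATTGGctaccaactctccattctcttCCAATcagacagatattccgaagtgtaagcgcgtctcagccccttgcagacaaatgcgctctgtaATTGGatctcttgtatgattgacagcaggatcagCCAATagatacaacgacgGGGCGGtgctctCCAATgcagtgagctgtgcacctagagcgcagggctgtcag
Acot1, chr6:109367024-109367273, plus strand: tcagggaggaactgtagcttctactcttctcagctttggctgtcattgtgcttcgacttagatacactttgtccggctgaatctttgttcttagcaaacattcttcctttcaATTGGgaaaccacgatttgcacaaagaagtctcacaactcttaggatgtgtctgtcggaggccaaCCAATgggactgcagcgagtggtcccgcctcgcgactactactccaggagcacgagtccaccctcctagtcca
Acot2, chr6:109342590-109342839, plus strand: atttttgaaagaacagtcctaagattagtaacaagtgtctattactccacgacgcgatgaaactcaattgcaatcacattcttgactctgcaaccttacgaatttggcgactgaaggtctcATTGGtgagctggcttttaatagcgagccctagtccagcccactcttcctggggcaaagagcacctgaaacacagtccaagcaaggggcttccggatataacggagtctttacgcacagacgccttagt
Angptl4, chr7:15258682-15258931, minus strand: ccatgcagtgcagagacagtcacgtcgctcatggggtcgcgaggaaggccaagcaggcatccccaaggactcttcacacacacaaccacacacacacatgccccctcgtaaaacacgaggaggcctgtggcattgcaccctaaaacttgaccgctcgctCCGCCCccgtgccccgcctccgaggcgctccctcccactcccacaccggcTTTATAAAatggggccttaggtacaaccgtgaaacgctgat
The window of Pxmp4 held 6 CCAAT boxes and 1 GC box, that of Acot1 held 2 CCAAT boxes and that of Acot2 held 1. Angptl4 had 1 GC box and a TATA box that reads on both strands. Upstream windows were found for 28 of the 33 genes. A CCAAT box lay in 10 of them (35.7%, against 34% of all 33469 promoters in the table), a GC box in 20 (71.4% against 30.5%), a TATA box in 2 (7.14% against 12.9%) and AGGTCA in 4 (14.3% against 14.1%). The set holds 1 window per gene, while every promoter of the table was counted, without a match for type of gene. The shares thus compare unlike sets, and no test was made. The looser direct repeat AGGNCANAGGNCA (N is any base), the arrangement bound by PPAR, lay in none of the 28 and in 0.368% of all promoters, and a missing match says only that these letters are not in the window.

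Acot1 encodes the cytosolic thioesterase that releases free fatty acids from long-chain acyl-CoA. Its signal was 151.3, 136.9, 137.9, 155.4 and 114.4 in SHR and 90.2, 77.5, 95.3, 80.1 and 78.0 in WKY. The groups did not overlap, and the difference was 0.63 (log2, SE 0.088, adjusted p = 0.00019). Acot2, the mitochondrial thioesterase that lies next to Acot1 in the gene order of GRCr8, had 109.3 ± 8.2 in SHR and 108.1 ± 18.9 in WKY (SD, n = 5). A probe set that carries both symbols had 65.8 to 83.1 in SHR and 34.5 to 52.6 in WKY (log2 0.51, adjusted p = 0.00492). Because these genes are near-identical copies, that signal cannot be assigned to either of them.

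Angptl4, a secreted inhibitor of lipoprotein lipase that is induced by fasting in several tissues, was the other gene of lipid supply that passed. The SHR arrays gave 136.5, 164.6, 185.7, 234.8 and 195.7, and the WKY arrays 112.0, 87.4, 103.3, 95.2 and 94.4. The lowest SHR array lay above the highest WKY array (log2 0.79, SE 0.109, adjusted p = 0.000177). SHR arrays spread over a wider range than WKY arrays, with an SD of 36.6 against 9.4. Ucp2, an inner membrane carrier of the uncoupling protein family, had 342.7 ± 30.7 in SHR and 355.1 ± 38.4 in WKY and did not pass.

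The auxiliary enzymes all had positive differences, 0.15 to 0.30 (log2), and 2 of the 4 passed. Ech1, which rearranges double bonds of unsaturated acyl-CoA, gave 1775.0, 1842.8, 1760.6, 1631.3 and 1697.9 in SHR and 1537.5, 1408.6, 1354.5, 1465.8 and 1353.7 in WKY. Every SHR array was above every WKY array (log2 0.29, SE 0.0529, adjusted p = 0.00255). Eci1, a mitochondrial isomerase of the same step, gave 299.6, 302.8, 366.4, 322.8 and 296.5 in SHR and 252.7, 241.5, 215.2, 286.0 and 284.5 in WKY. The gap between the groups was small (log2 0.30, SE 0.0816, adjusted p = 0.0429). Decr1, the 2,4-dienoyl-CoA reductase, also did not overlap between the strains (650.7 to 735.4 in SHR, 609.2 to 648.6 in WKY) but did not pass. Groups without overlap were found for 7 of the 30 genes, all higher in SHR, beside 3.08% of all probe sets.

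Of the 4 acyl-CoA dehydrogenases, which take the first electrons and differ in chain length, Acadl passed. Its signal was 279.1, 261.7, 297.6, 263.9 and 290.6 in SHR and 233.9, 248.9, 230.6, 223.7 and 246.2 in WKY (log2 0.22, SE 0.0619, adjusted p = 0.0477). The groups did not overlap. The enzymes for very long, medium and short chains, Acadvl, Acadm and Acads, had differences of -0.10 to -0.05 (log2). The calls of Acadl and Eci1 depended on single arrays: without SHR 1, 3 or 4 or WKY 1, 2 or 3, Eci1 had adjusted p = 0.0563, 0.125, 0.0852, 0.0861, 0.099 and 0.11. Acadl did not pass without SHR 1, 3, 4 or 5 (0.0871, 0.131, 0.0505 and 0.106) or any 1 of WKY 1 to 5 (0.0961, 0.0585, 0.0981, 0.111 and 0.0675). Neither passed in a fit that included the Gapdh ratio of 3' to 5' probe sets (0.0849 for Eci1 and 0.105 for Acadl), though the differences there were 0.30 and 0.21 (log2), close to 0.30 and 0.22 without it. The ratio is a measure of RNA integrity that ran from 0.04 to 0.41 (log2) in SHR and from 0.03 to 0.21 in WKY.

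None of the genes of the remaining steps passed between the strains. Cpt1a, the gate of mitochondrial import, had 372.2 ± 47.5 in SHR and 382.4 ± 40.9 in WKY (SD, n = 5), and the carnitine carrier Slc25a20 had 106.9 ± 19.7 and 106.0 ± 9.9. Hadha and Hadhb, the subunits of the trifunctional protein, had 465.9 ± 29.0 against 456.8 ± 12.6 and 1071.5 ± 41.8 against 1058.7 ± 48.3. Oxct1, which activates ketone bodies for use, had 722.4 ± 24.8 against 680.2 ± 23.6. Etfa, a subunit of the electron transfer flavoprotein, had the lowest difference of the set at -0.16 (log2), with 731.5 to 968.5 in SHR and 881.2 to 1077.2 in WKY.

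WKY was the group with the lowest mean for 15 of the 30 genes (50%), where 22.5% of all probe sets kept over the 23 arrays had their lowest mean in WKY. For Pxmp4, Angptl4, Acot1, Eci1 and Decr1, all 5 WKY arrays lay below the 18 other arrays, which held for 0.811% of all probe sets. Strain and sample set change together between these 10 arrays and the Sprague Dawley arrays, which have another label text, so no test was made across them. Hadha was the single gene of the set for which all 10 SHR and WKY arrays (437.2 to 513.6) lay below the 13 Sprague Dawley arrays (520.9 to 686.2), beside 2.23% of all probe sets.

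**Figure D2:**
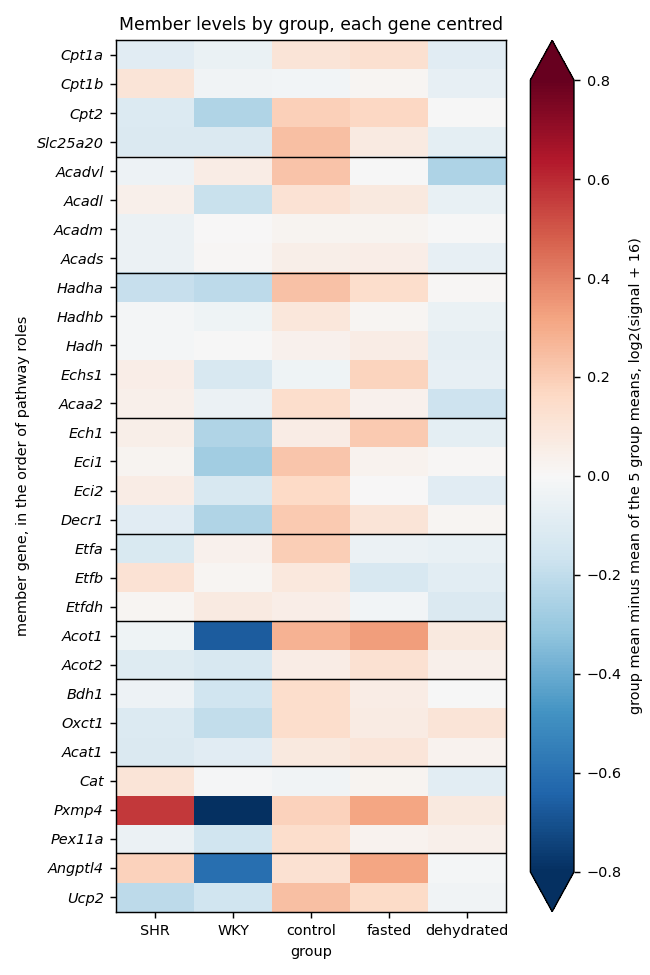
Mean of log2(signal + 16) in each group for the 30 tested genes, each row centred on the mean of its 5 group means, with lines between pathway roles. Blue cells are below and red cells above that mean. The WKY column is darkest blue at Pxmp4, Acot1 and Angptl4, and the dehydrated column is blue or near white in most rows while the control column is mostly red.

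One probe set went the opposite way. The signal shared by Acaa1b and Acaa1a, peroxisomal thiolases that complete the shortened cycle, was 109.8, 133.4, 107.5, 69.9 and 86.8 in SHR and 163.0, 177.4, 206.8, 155.3 and 202.5 in WKY. All WKY arrays were above all SHR arrays (log2 -0.76, SE 0.126, adjusted p = 0.00124), and the Sprague Dawley arrays ran from 81.9 to 128.0. It carries several symbols and so falls outside the set, and it was singled out after its values were seen.

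Among 76 tested further genes of the same pathways, 5 were higher and 4 lower in SHR (11.8%, median -0.01). Over all probe sets 5.06% passed, 2.17% higher and 2.88% lower. The peroxisomal import receptor Pex7 (107.6 ± 11.6 against 77.3 ± 7.4) and Ephx2, an epoxide hydrolase of cytosol and peroxisomes (104.9 ± 5.3 against 21.5 ± 11.9), were higher (log2 0.40 and 1.75, adjusted p = 0.00856 and 6.67e-06). Ephx2 was dim in WKY (7.1 to 38.6) and in Sprague Dawley arrays (15.2 to 41.1), so its place among the tested genes rests largely on the SHR arrays. The fatty acid carrier Fabp3 (350.2 ± 35.3 against 255.1 ± 19.6, adjusted p = 0.00171) and the valine-degrading enzyme Hibch (314.5 ± 16.3 against 228.6 ± 11.5, adjusted p = 0.000222) were also higher in SHR. Crot, the peroxisomal carnitine octanoyltransferase, was lower in SHR at 298.6 ± 12.6 against 449.1 ± 20.5 (log2 -0.56, adjusted p = 5.87e-06), a call that an average over its probe sets did not keep (0.0999). Acsbg1, an acyl-CoA synthetase of glia, was lower at 592.8 ± 56.8 against 818.3 ± 90.0 (log2 -0.45, adjusted p = 0.00135). The other 3, given after their values were seen, were the monocarboxylate and ketone carrier Slc16a1 (log2 0.37), the fatty acid transporter Slc27a1 (log2 -0.23) and the synthetase Acsl6 (log2 -0.39).

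Markers of other cells moved between the strains too. Of 5 tested microglia markers 2 passed as lower in SHR (2.88% of all probe sets). All 5 were negative (median -0.35) with an unadjusted p below 0.05 in the limma test, as had 3208 of 18625 probe sets. The summed signal of the list was 1066.1 to 1499.8 in SHR and 1541.3 to 1740.6 in WKY. Of 5 tested markers of fibroblasts and meninges 2 passed as lower, with sums of 1935.0 to 2589.6 and 2793.9 to 3479.6. All 5 of these were negative too (median -0.19), and 3 had an unadjusted p below 0.05. None of 5 tested astrocyte markers passed (sums 6719.9 to 8606.8 and 6604.6 to 9023.3). Of the adipocyte markers, Adipoq ran from 15.1 to 47.6 over all arrays and Cidec and Ucp1 stayed at or below 18.5. The part of these cells in the strain differences was not tested.

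After dehydration for 72 h, Acadvl, the very long chain acyl-CoA dehydrogenase that opens the mitochondrial cycle, fell from 395.9 ± 29.6 in control to 280.9 ± 12.6 (SD, n = 4 each), a 1.39-fold decrease. It was the single gene of the 30 that passed, beside 0.166% of all probe sets in either direction and 0.113% lower, and 9 of the 30 had an unadjusted p below 0.05 (11.7% of all probe sets). All 30 genes had a negative difference, where 52.4% of all probe sets did, and their median was -0.16 (log2) beside -0.009 over all probe sets. With single arrays left out 27 to 30 of them stayed negative, and without control 2 and dehydrated 2, a choice made after the data were seen, 25 did. The genes were read on the same arrays, so this count does not stand for 30 independent observations.

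**Figure D3:**
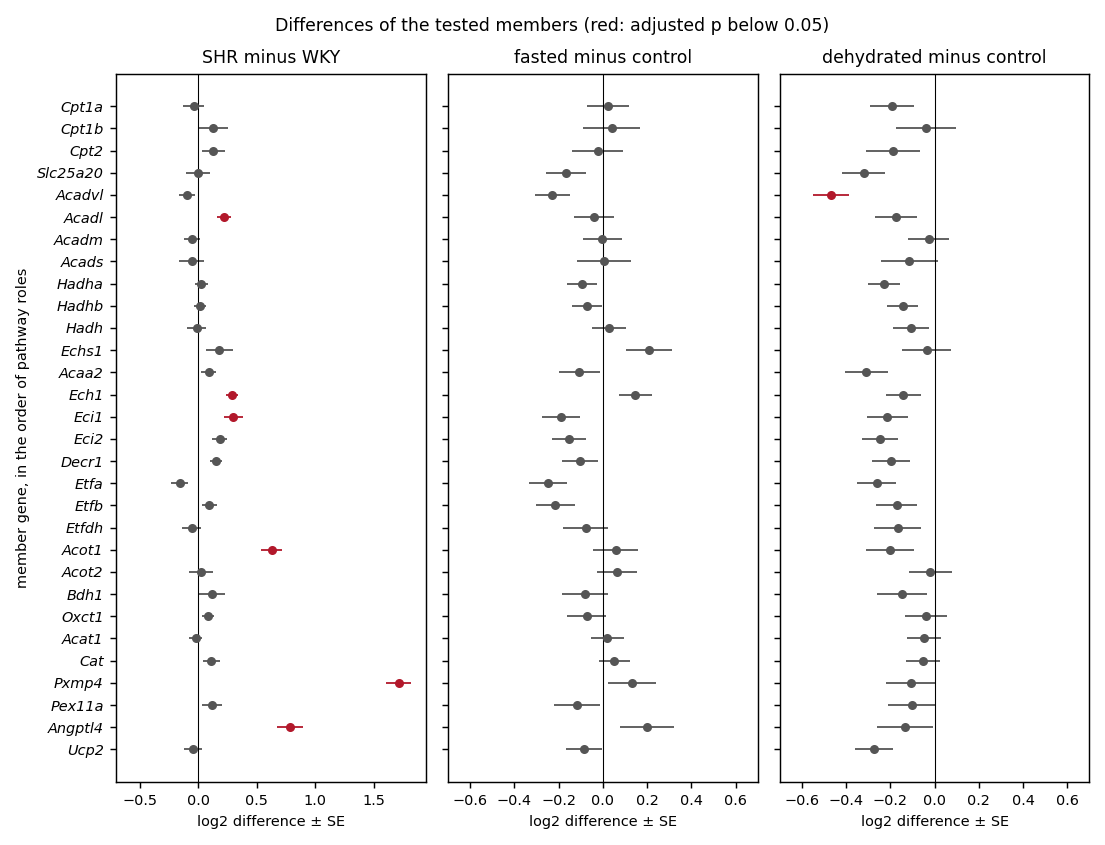
Log2 difference ± SE of the 30 tested genes in 3 comparisons, in the order of pathway roles, with the vertical line at 0 and red points where the adjusted p is below 0.05. In the right panel all points lie left of 0, from -0.47 (Acadvl) to -0.02, and the 2 Sprague Dawley panels share the control arrays. The horizontal axis of the left panel is wider.

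Acadvl gave 408.0, 413.5, 351.7 and 410.6 in the control arrays and 269.8, 285.9, 296.4 and 271.6 in the dehydrated arrays. Even the lowest control array, control 3, lay above all dehydrated arrays (log2 -0.47, SE 0.0816, adjusted p = 0.016). Fasted arrays reached into the range of both groups at 341.8, 368.8, 325.6, 290.5 and 353.4. The call was lost without control 1, 2 or 4 (adjusted p = 0.0577, 0.0673 and 0.0912), without dehydrated 1 or 2 (0.0615 and 0.0534) and with control arrays 3 and 4 alone (0.227), while the difference stayed between -0.52 and -0.41. The upstream 250 bases of Acadvl are shown because it is the gene that passed, with capitals as above, and hold 2 matches of AGGTCA.
Acadvl, chr10:55236706-55236955 (GRCr8), minus strand: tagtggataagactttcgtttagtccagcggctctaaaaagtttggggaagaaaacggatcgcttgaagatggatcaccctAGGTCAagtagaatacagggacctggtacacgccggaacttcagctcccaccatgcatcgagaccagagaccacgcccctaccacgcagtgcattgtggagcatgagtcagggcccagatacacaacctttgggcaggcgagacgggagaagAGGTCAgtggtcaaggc

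The carnitine carrier Slc25a20, which exchanges acylcarnitine for carnitine across the inner membrane, gave 162.6, 126.9, 124.0 and 149.5 in control and 105.6, 106.3, 122.1 and 102.2 after dehydration. The groups were separate by a small margin, and the difference did not pass (log2 -0.32, SE 0.0966, adjusted p = 0.185). The other genes of import, Cpt1a, Cpt1b and Cpt2, had differences of -0.19 to -0.04. Cpt1a had 426.3 ± 36.3 in control and 373.0 ± 50.7 after dehydration, where dehydrated 1 stood apart at 297.7.

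In the core of the cycle, Hadha gave 592.1, 686.2, 596.1 and 639.1 in control and 528.8, 523.7, 552.9 and 528.4 after dehydration. These did not overlap, and the difference did not pass (log2 -0.23, SE 0.0731, adjusted p = 0.222). Its partner Hadhb had 1155.1 ± 50.7 and 1047.6 ± 99.3 and overlapped. The thiolase Acaa2, which releases acetyl-CoA in the last step, gave 505.0, 485.5, 432.6 and 416.8 in control and 361.4, 356.1, 387.5 and 365.0 after dehydration (log2 -0.31, SE 0.0989, adjusted p = 0.222). Every control array of Acaa2 was above every dehydrated array. The difference was -0.09 (adjusted p = 0.741) when averaged with a dim second probe set (1.8 to 16.5) and -0.20 (0.574) with control arrays 3 and 4 alone.

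Hadha and Hadhb are transcribed away from each other, with annotated starts 300 bases apart. The 200 bases that the upstream windows of both genes share are shown because both subunits are read from this stretch.
Hadha and Hadhb, chr6:31907551-31907750 (GRCr8), plus strand: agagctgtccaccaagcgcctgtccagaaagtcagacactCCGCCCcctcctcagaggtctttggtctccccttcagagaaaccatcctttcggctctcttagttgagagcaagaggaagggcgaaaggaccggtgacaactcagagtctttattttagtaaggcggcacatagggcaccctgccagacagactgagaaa
Capitals mark a GC box, the one match among the 4 motifs. Hadha had group means of 465.9 (SHR), 456.8 (WKY), 628.4 (control), 587.9 (fasted) and 533.4 (dehydrated), and Hadhb 1071.5, 1058.7, 1155.1, 1097.2 and 1047.6. Whether the subunits differed in this was not tested.

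Ucp2 gave 506.4, 484.3, 423.6 and 478.9 in control and 346.8, 394.9, 402.8 and 412.0 after dehydration. The groups were separate and the difference did not pass (log2 -0.27, SE 0.0856, adjusted p = 0.21). Groups without overlap, all lower after dehydration, were found for 7 of the 30 genes, beside 3.37% of all probe sets. The mean of the dehydrated arrays was the lowest of the 3 Sprague Dawley groups for 27 of the 30 genes, which held for 38.5% of all probe sets. The other members of the count of 7 were Eci2, an isomerase of mitochondria and peroxisomes, and Etfa. Nearest to 0 were the differences of Acot2, Acadm, Echs1, Acat1, Oxct1 and Cpt1b. For ketone use, the mitochondrial thiolase Acat1 had 548.4 ± 26.7 in control and 530.7 ± 40.8 after dehydration, and Oxct1 had 868.3 ± 133.2 and 839.2 ± 61.3.

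**Figure D4:**
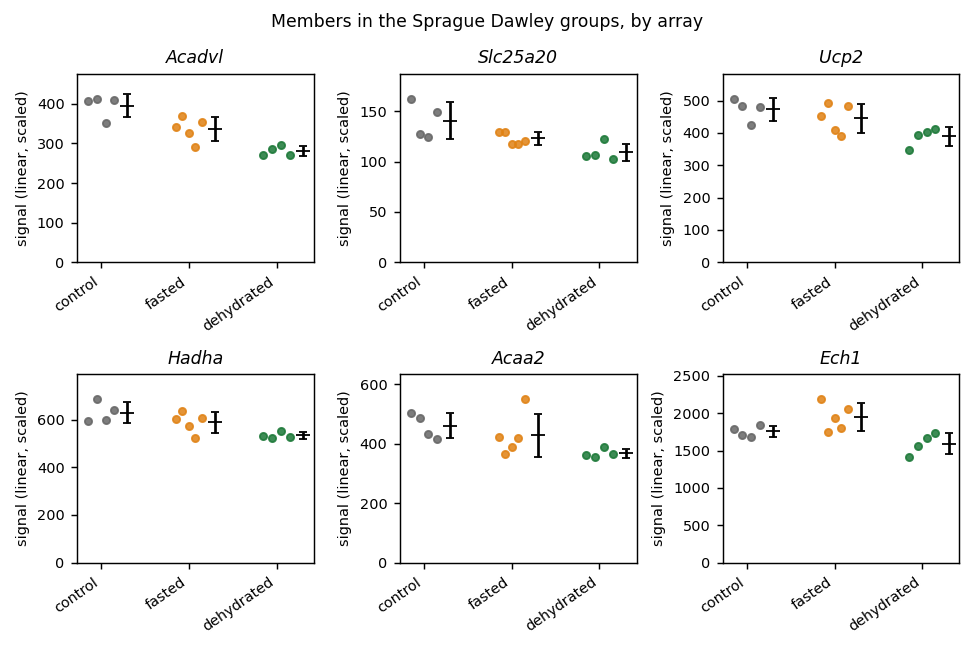
Signal of 6 genes in the Sprague Dawley groups on linear axes from 0, with arrays as points and mean ± SD as bars. The control and dehydrated arrays do not overlap for Acadvl, Slc25a20, Ucp2, Hadha and Acaa2, and the mean of Ech1 is highest in the fasted arrays.

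Of 74 tested further pathway genes 1 passed after dehydration, beside 0.166% of all probe sets. Acsbg1 fell from 910.8 ± 18.3 in control to 597.8 ± 29.5 (log2 -0.60, SE 0.0851, adjusted p = 0.00515), with all arrays separate, and had 683.7 ± 92.8 in fasted rats. With control arrays 3 and 4 alone it did not pass (adjusted p = 0.115). Negative differences were found for 45 of the 74 genes (52.4% of all probe sets), with a median of -0.07. The 13 tested genes of other mitochondrial oxidation had 12 negative differences (median -0.19), and the 5 ketone genes of this further list had 5 positive ones (median 0.13), while the 3 ketone genes of the set had 3 negative ones (median -0.05).

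RNA integrity and adjacent tissue varied over the same arrays. The 3' to 5' Gapdh ratio was 0.21 to 0.57 (log2) in control, 0.18 to 0.26 in fasted and 0.21 to 0.68 in dehydrated arrays. With this ratio as covariate all 30 differences stayed negative and Acadvl passed. Without control 2 and dehydrated 2, the arrays of highest ratio (0.57 and 0.68), 25 of the 30 stayed negative. Acadvl did not pass there (adjusted p = 0.168 in the limma test), and that setting was chosen after the data were seen. Summed markers of fibroblasts and meninges were 3283.6 to 4331.1 in control and 2678.4 to 3704.6 after dehydration. Of the 5 tested markers of that list 4 were negative (median -0.35), the same 4 had an unadjusted p below 0.05, 2 did not overlap, both lower, and 0 passed. Summed choroid plexus markers were 403.4 to 6760.0 and 485.9 to 8132.2, with 0 of 2. Of 4 tested microglia markers all had negative differences and 0 passed, with sums of 988.6 to 1065.6 in control and 775.9 to 1104.4 after dehydration. The astrocyte sums were 7706.5 to 9780.4 and 8438.0 to 11108.0, with 0 of 5. The part of the cell makeup in the dehydration values was not tested.

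Fasting for 48 h moved none of the 30 genes past the threshold in the limma test, beside 0.0215% of all probe sets (4 of 18625). An unadjusted p below 0.05 was reached by 4 of the 30, beside 7.19% of all probe sets. Differences ran from -0.25 to 0.21 (log2), 12 positive and 18 negative (49.0% of all probe sets), with a median of -0.06 beside 0.003 over all probe sets. In no gene were the fasted and control arrays separate, which held for 2.32% of all probe sets.

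The smallest p-values after fasting belonged to Acadvl, to both subunits of the electron transfer flavoprotein, and to Eci1 and Echs1. Etfa gave 1169.5, 1106.0, 1042.1 and 1055.8 in control and 1058.1, 904.3, 917.6, 753.4 and 982.5 in fasted arrays (log2 -0.25, SE 0.0846, adjusted p = 0.513). One fasted array, fasted 1, reached into the control range. Etfb gave 447.8, 552.0, 510.1 and 527.2 in control and 531.1, 422.0, 391.6, 385.6 and 461.9 in fasted arrays (log2 -0.21, adjusted p = 0.63), and these overlapped. Acadvl (log2 -0.23, adjusted p = 0.513) and Eci1 (log2 -0.19, adjusted p = 0.674; -0.06 with its probe sets averaged) had lower means in fasted rats. Echs1, the enoyl-CoA hydratase of the second step, had the largest positive value, with 367.1 ± 23.4 in control and 428.6 ± 54.0 in fasted arrays (log2 0.21, adjusted p = 0.7).

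Some genes known as fasting and PPAR targets in liver are given here by level, with higher means in fasted arrays. Over the 30 tested genes of the set, 12 differences were positive and 18 negative. Cpt1a had 426.3 ± 36.3 in control and 433.9 ± 42.9 in fasted arrays, Angptl4 had 174.2 ± 28.8 and 202.6 ± 34.5, and Acot1 had 177.7 ± 27.4 and 184.3 ± 12.4 (n = 4 and 5). Each pair overlapped. Pdk4, a kinase that spares glucose in fasting and a gene of the further list, had 418.5 ± 9.6 in control (405.6 to 427.1) and 463.5 ± 37.2 in fasted arrays (429.0 to 520.9). Its arrays did not overlap, and the difference did not pass (log2 0.14, SE 0.0978, adjusted p = 0.792). Among the 74 tested genes of that list, Pdk4 was the 1 gene that was separate and higher, and 2 were separate and lower. These were Acsbg1 (892.5 to 936.2 in control, 584.1 to 809.6 in fasted arrays) and Phyh (1262.3 to 1349.1 and 1052.2 to 1258.5). Over all probe sets 2.32% were separate in either direction. Pdk4, Acsbg1 and Phyh were added here after their values were seen. Of the further pathway genes 0 of 74 passed in the limma test (0.0215% of all probe sets), with 7 at an unadjusted p below 0.05 (7.19% of all probe sets). The 5 tested ketone genes of that list had differences of 0.05 to 0.14, all positive. Of the 3 ketone genes of the set, 1 had a positive and 2 a negative difference (median -0.07). The 13 tested further genes of other mitochondrial oxidation had 12 negative differences after fasting too (median -0.10), against the same control arrays as after dehydration. Over all probe sets 49.0% were negative after fasting.

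Dehydrated and fasted rats, compared directly, showed no gene of the set past the threshold in the limma test, beside 0.0322% of all probe sets, with 9 of the 30 at an unadjusted p below 0.05 (10.0% of all probe sets). Differences were negative for 27 of 30 genes (52.7% of all probe sets), with a median of -0.11. Ech1 had the smallest p, with 2191.1, 1747.0, 1942.5, 1805.2 and 2062.9 in fasted and 1417.9, 1559.0, 1663.5 and 1737.2 in dehydrated arrays. The groups were just separate (log2 -0.29, SE 0.0746, adjusted p = 0.209). Acot1 was separate as well, the 1 other gene of the set for which this held (1.91% of all probe sets, lower), with 170.1 to 202.5 in fasted and 123.9 to 169.9 in dehydrated arrays (log2 -0.26, adjusted p = 0.415). Angptl4 (log2 -0.33, adjusted p = 0.373), Acadvl (log2 -0.24, adjusted p = 0.304) and Echs1 (log2 -0.24, adjusted p = 0.453) overlapped.

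The spread between arrays of a group had a median SD of 0.13 (log2) over the 30 genes, beside 0.16 over all probe sets kept, and ran from 0.08 for Hadhb to 0.21 for Angptl4. The probe sets compared were not matched for signal level, so the medians do not show that the set was steadier than others.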

How the data were processed

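The authors deposited 1 intensity signal per probe set and array, made with GCOS 1.2 per the submitters' processing notes, with settings not given in the sources used here. After removal of 2% of values at each end the mean of every array was 100, so values were used as deposited. The table holds 31099 probe sets, 57 of them controls, and 0 columns lacked a sample. Genes were named from the platform annotation. Signals were transformed as log2(signal + 16), and probe sets below the 40th percentile of the mean over the arrays of a fit were left out, which kept 18625. SHR and WKY (10 arrays) and the Sprague Dawley groups (13 arrays, 1 model) were fitted separately with limma 3.58.1 in R 4.3.3 (lmFit, eBayes with trend and robust, two-sided), with Benjamini-Hochberg adjustment over all probe sets kept and a threshold of 0.05. The number of arrays limits the precision. In simulated data, 47 of 100 changes of 0.5 (log2) were recovered for dehydration, 62 for fasting and 79 between the strains, out of 18625 probe sets. Each simulated comparison also held 100 changes of 1.0, and all changes lay in probe sets above the median signal, with independent noise. In the real fits 31 probe sets passed for dehydration and 4 for fasting. With fewer true changes the adjustment is stricter, so the simulated counts may overstate the recovery there.

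The set, the further pathway genes (103 listed, 92 measured) and the marker lists were chosen with earlier results of these data known. Tested differences are given by gene for those that pass and, where fewer than 5 pass, for the 5 with the smallest p, and for up to 6 further pathway genes, with exceptions named where they occur. Other genes are described by level. Alternatives were other normalization, pseudocounts, filters, variance models and covariates, all 23 arrays in 1 model, averaged probe sets and left-out arrays. Promoter sequences are those of RefSeq for GRCr8. Python 3.11.15 with pandas 2.3.3, numpy 2.4.6 and matplotlib 3.10.9 was used for levels, counts and plots.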

Additional observations from a re-analysis of the deposited data

Results flagged for a closer look

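In 9 of 160 sets of 4 or 5 arrays (32 genes in 5 groups), 1 array stood far from the rest by Dixon's criterion, where chance flags about 1 set in 20. Control 3 stood apart for 3 genes: Acadvl (351.7, others 408.0 to 413.5), Hadhb (1079.2, others 1177.0 to 1183.8) and Decr1 (729.9, others 906.9 to 925.5). Over the 30 tested genes, control 3 was the lowest control array for 14, control 1 for 8 and control 2 and control 4 for 4 each. Dehydrated 1 was low for Cpt1a (297.7, others 390.5 to 408.1) and dehydrated 2 for Cpt2 (61.6, others 80.5 to 84.1). WKY 1 was high for Hadha (479.1, others 448.7 to 453.1) and low for Acot2 (76.0, others 111.0 to 125.9), and WKY 4 was low for Echs1 (236.7, others 350.9 to 403.2). Ppara in control 1 had 1.4, others 2.9 to 3.1, at the bottom of the signal range.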

How the results depend on the processing

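Between the strains 6 genes of the set passed, and 4 to 6 did under every alternative, all of them among the same 6 and all higher in SHR. Pxmp4, Angptl4, Acot1 and Ech1 passed in each fit that tested them. The filter at the 60th percentile removed Pxmp4, and with all probe sets averaged it fell below the filter. With the replicate number as a block 4 passed (adjusted p = 0.0577 for Eci1 and 0.0604 for Acadl). After dehydration 1 gene passed, and 0 did with eBayes without trend and robust (Acadvl adjusted p = 0.0712), with the replicate block (0.0576), with control arrays 3 and 4 alone, and without control 2 and dehydrated 2 (0.168), a setting chosen after the data were seen. With single arrays left out, 4 to 6 genes passed between the strains, 0 to 1 after dehydration, and 0 in both other comparisons. Fasting and the direct comparison of treatments gave 0 genes of the set under every alternative. For the genes named with a test, 525 of 562 alternative values kept their side of the threshold, 37 lost the call and 0 changed sign. Many of the 525 belong to genes without a call in the main fit, which had none to lose. Between the strains Acadl lost its call in 15 of 20 alternatives, Eci1 in 11 of 20 and Crot in 1 of 20. After dehydration Acadvl lost it in 9 of 20 and Acsbg1 in 1 of 20. With a pseudocount of 64 the strain differences of Pxmp4 and Ephx2 were 1.01 and 0.99 (log2), and with probe sets averaged that of Eci1 after fasting was -0.06. Over all probe sets, 31 passed after dehydration, with 15 under the replicate block and without the filter, 10 without trend and robust, 6 under the setting added later, 2 with control arrays 3 and 4 alone, 74 with all 23 arrays in 1 model and 9 to 42 with single arrays left out. Between the strains 942 passed, 419 with probe sets averaged (8530 tested) and 698 to 1073 otherwise. Fasting gave 4 (0 to 6 over the alternatives) and the direct comparison of treatments 6 (1 under the replicate block, 1 to 10 in all). The replicate numbers did not pair the arrays throughout: deviations of same-numbered arrays correlated above 0.1 in 2 of 17 cases, and 4 of the 17 correlated best with their own number. Both cases above 0.1 were SHR with WKY, replicates 1 and 2 (0.158 and 0.273), and both were best with their own number. Pairing of some strain arrays thus remains possible, and the replicate block gave 1073 calls between the strains where the fit without it gave 942. The 4 or 5 arrays of each group limit the precision.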
